A study of Drosophila melanogaster with 2 samples.

Results

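The ISC1 cells are the larger of 2 intestinal stem cell classes that the authors annotated in single-cell RNA profiles of the fly midgut. The members were taken as deposited, by the class label ISC1 in the authors' table of cells, and numbered 895 of 4184 cells. Of the 1473 cells from 3-day old flies 361 were ISC1, against 534 of the 2711 cells from 1-day old flies. All flies were females of the wild type strain Canton S of Drosophila melanogaster, without transgene or treatment per the labels, and the epithelium of the adult midgut was profiled with the Chromium v3.1 chemistry. The study was titled after enteroendocrine cells that dedifferentiate in response to nutrients. Each age had 1 library, so no value below has a replicate check, age and library cannot be told apart, and no p-value was computed. The labels do not say how many flies went into a library.

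Intestinal stem cells renew the midgut by dividing into a new stem cell and a daughter. A daughter with strong Notch signalling becomes an enteroblast, which matures into an absorptive enterocyte. A daughter with little Notch signalling can become a hormone-secreting enteroendocrine cell. The stem cell carries the membrane ligand Delta (Dl), which activates the receptor Notch (N) on the neighbouring daughter. Both stem cells and enteroblasts express the transcription factor escargot (esg), which holds them undifferentiated. In the adult midgut the stem cells are the main dividing cells, so cell cycle genes mark the active ones. The other progenitor classes used for comparison were ISC2, the second stem cell class, and EB1, the largest class of enteroblasts. EC-like cells are a further class of the annotation, and apEC and mEC cells were joined as enterocytes.

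ISC1 made up 24.5% of the day 3 library (95% interval 22.3 to 26.8), against 19.7% of the day 1 library (18.2 to 21.2). These intervals are exact binomial intervals and cover counting error only. Among the progenitors, which are ISC1, ISC2 and the enteroblast classes EB1, EB2 and EB3, the share was 29.7% at day 3 (27.1 to 32.3) and 24.3% at day 1 (22.5 to 26.1). Among the stem cell classes alone the balance was alike, with ISC1 at 57.8% of ISC1 and ISC2 cells at day 3 (53.8 to 61.7) and 56.2% at day 1 (52.9 to 59.3). ISC2 also took a larger share of the day 3 library, with 264 of 1473 cells, against 417 of 2711 at day 1. EB1 took a smaller share, with 399 of the day 3 and 970 of the day 1 cells. Whether the balance of both stem cell classes differs between the ages was not tested, since each age had 1 library.

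The cells were deeply sequenced. A unique molecular identifier (UMI) marks each captured transcript, and the ISC1 cells held 13749777 UMIs at day 3 and 16301775 at day 1. The median ISC1 cell had 33195 UMIs and 3278 genes at day 3, against 26213 UMIs and 2962 genes at day 1. ISC1 cells were deeper than ISC2 cells, whose medians were 21826 UMIs at day 3 and 17672 at day 1, and shallower than EB1 cells, with 45334 and 34191. Genes encoding ribosomal proteins took a median of 51.3% of ISC1 counts at day 3 and 52.8% at day 1, against 58.6% and 60.0% in ISC2. The libraries shared 1 cell barcode, and it was in no ISC1 cell. In the authors' label transfer, which scores each cell against a reference annotation, 354 of 361 and 521 of 534 ISC1 cells were again called ISC1, and 10 and 17 cells had a score under 0.5.

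The markers given for the class are esg, Dl and N. In the annotation BDGP6.54.115, esg (FBgn0287768) lies on chromosome 2L at 15333866 to 15336138 and N (FBgn0004647) on chromosome X at 3134870 to 3172221, both on the plus strand. Shares of cells with a UMI were measured after every cell was thinned to 4000 UMIs, in the 129 day 3 and 294 day 1 ISC1 cells for which UMI counts could be rebuilt. At that depth esg was detected in 69.0% of ISC1 cells at day 3 (60.3 to 76.8) and 68.4% at day 1 (62.7 to 73.6). Fewer cells carried Dl, with 27.9% at day 3 (20.4 to 36.5) and 37.1% at day 1 (31.5 to 42.9), and more carried N, with 81.4% at day 3 (73.6 to 87.7) and 80.3% at day 1 (75.3 to 84.7). The markers were near or at 0 in enterocytes, which should lack them: esg and Dl were found in 0 of 27 cells at day 3, which allows a share of up to 11.1%, and in 0 of 28 at day 1, which allows up to 10.7%. N was found in 1 of those 27 cells, a share of 3.70%, and in none of the 28.

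The progenitor character of ISC1 was thus clear against enterocytes, but the markers did not set ISC1 apart from ISC2. In ISC2 the shares were higher for esg, at 82.6% and 87.7% at day 3 and day 1, for Dl, at 43.7% and 57.8%, and for N, at 91.6% and 86.3%. EC-like cells also carried all of them, with 84.6% and 88.2% for esg, 28.5% and 44.9% for Dl and 87.0% and 84.6% for N. EB1 differed by Dl, which was found in 2.86% of cells at day 3 and 1.55% at day 1. All of esg, Dl and N were found together in 16.3% of ISC1 cells at day 3 and 18.7% at day 1, against 34.2% and 45.5% in ISC2 and 2.86% and 0.621% in EB1. The classes were drawn by the authors from these same cells, so these values check the label and test nothing.

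**Figure D1:**
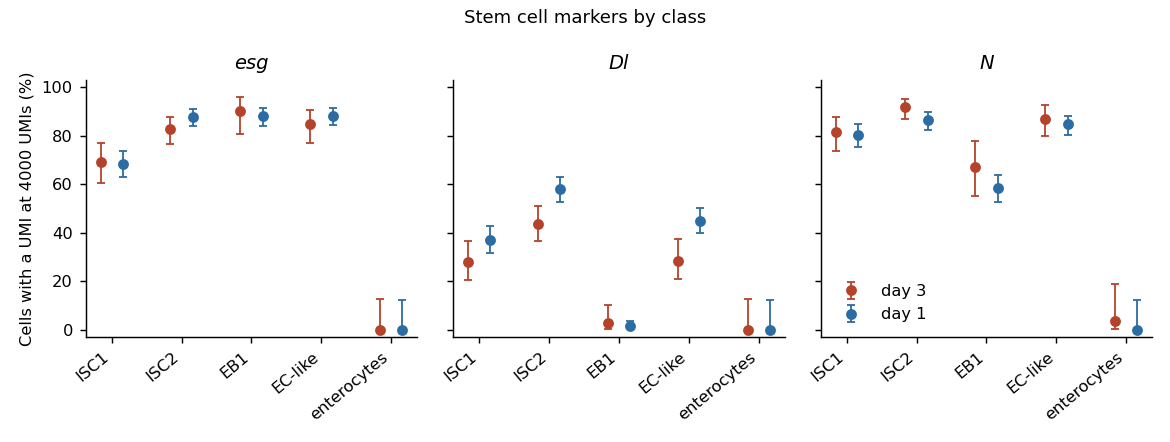
Share of cells with at least 1 UMI of esg, Dl and N (vertical axis, percent) after thinning each cell to 4000 UMIs, by class, in red for day 3 and in blue for day 1, with exact 95% intervals. Dl was found in 27.9% and 37.1% of ISC1 cells at day 3 and day 1, fewer than the 43.7% and 57.8% of ISC2 and more than the 2.86% and 1.55% of EB1, and esg was found in no enterocyte.

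Levels are means over cells of the authors' depth-corrected counts, scaled so that each cell sums to 10000. For esg the level was 3.70 in ISC1 at day 3 and 3.33 at day 1, against 6.96 and 6.45 in ISC2 and 7.23 and 6.39 in EB1. For Dl it was 1.14 in ISC1 at day 3 and 1.38 at day 1, against 1.69 and 2.76 in ISC2 and 0.0217 and 0.0522 in EB1. For N it was 3.97 in ISC1 at day 3 and 3.48 at day 1, against 5.64 and 5.20 in ISC2 and 2.05 and 2.01 in EB1. ISC1 thus held less of all 3 transcripts than ISC2, and more Dl and N but less esg than EB1.

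Counted over all measured genes, ISC1 had far more genes above ISC2 than below it. A gene was assessed where its mean reached 0.1 per 10000 in ISC1 or the other class in each library. It was called higher or lower where its log2 ratio, with 0.1 added to both means, was at least 0.5 in that direction in both libraries, which is a fold of 1.41. By that rule 1292 of 4422 genes, or 29.2%, were higher in ISC1 than in ISC2, and 143, or 3.23%, were lower. Against EB1, 1415 of 4554 genes, or 31.1%, were higher and 392, or 8.61%, were lower. Against all other cells 901 of 4670 genes, or 19.3%, were higher and 406, or 8.69%, were lower. The median over all genes was itself above 0, at a log2 ratio of 0.32 at day 3 and 0.31 at day 1 over ISC2 and 0.27 and 0.26 over EB1. With that median set to 0 the split became 475 higher and 529 lower over ISC2, 817 and 724 over EB1, and 452 and 628 over all other cells. The lists below are read against the median of all genes. Members of a list under the level for assessment are left out of its counts, and a member assessed through the class where it is high had to differ, so the counts are descriptions.

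DNA replication genes were among the genes with the largest ratios over ISC2. PCNA, the sliding clamp of DNA replication, averaged 1.37 per 10000 in ISC1 and 0.148 in ISC2 at day 3, and 1.44 in ISC1 and 0.157 in ISC2 at day 1 (log2 ratio 2.57 at day 3 and 2.58 at day 1). RnrS, the small subunit of the ribonucleotide reductase that makes deoxyribonucleotides, averaged 0.829 in ISC1 and 0.106 in ISC2 at day 3, and 0.723 in ISC1 and 0.0829 in ISC2 at day 1 (log2 2.18 at day 3 and 2.17 at day 1). The thymidylate synthase gene Ts, the deoxyribonucleoside kinase gene dnk and RPA2, a subunit of the protein that coats single-stranded DNA, had ratios between 1.79 and 2.35. The others of the 8 genes with the largest ratios were hoip, which encodes an RNA-binding protein of the spliceosome and small nucleolar particles (2.05 and 2.004), Nazo (2.21 and 1.83) and CG15083 (1.82 and 1.89). Of these 8 genes 5 belong to nucleotide synthesis or DNA replication.

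The replication list showed the same direction. Of its 25 genes 18 were assessed, and 14 of those were higher in ISC1 than in ISC2 and none was lower, with a median log2 ratio of 1.18 at day 3 and 1.16 at day 1. The 5 assessed subunits of the Mcm helicase, which unwinds DNA, were among them, such as Mcm7 with 0.468 in ISC1 and 0.0641 in ISC2 at day 3, and 0.409 in ISC1 and 0.0409 in ISC2 at day 1. So were geminin, an inhibitor of origin licensing, and Dp, the partner of E2F factors. The 4 that were not higher by this rule were CycD, Cdk4, E2f1 and Caf1-105. Against EB1, 15 of 18 were higher and none lower, with medians of 1.48 at day 3 and 1.20 at day 1. EB2 was closer to ISC1. The summed level of the list was 9.91 per 10000 in ISC1 at day 3 and 9.16 at day 1, against 7.33 and 8.50 in EB2. PCNA stood at 0.915 in EB2 at day 3 and 1.34 at day 1, and hoip was higher in EB2, with 3.12 in ISC1 at day 3 and 3.49 at day 1, against 4.02 and 5.53 in EB2.

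Mitotic genes were also higher, with larger ratios over EB1 than over ISC2. Of 25 assessed genes of G2 and mitosis, out of 31 in the table, 18 were higher in ISC1 than in ISC2, with medians of 0.80 at day 3 and 0.85 at day 1, and 23 were higher than in EB1, with medians of 1.63 at day 3 and 1.52 at day 1. None was lower in either comparison. The Aurora B kinase gene aurB, which acts in chromosome segregation, averaged 0.514 in ISC1 and 0.119 in ISC2 at day 3, and 0.636 in ISC1 and 0.135 in ISC2 at day 1. In EB1 its level was 0.00608 at day 3 and 0.0147 at day 1. The cyclin genes CycA and CycB and the kinase genes Cdk1 and polo were higher in both comparisons. For stg, the Cdc25 phosphatase that starts mitosis, the level in ISC1 was 0.271 at day 3 and 0.235 at day 1, against 0.187 and 0.0627 in ISC2, so that the fold was reached at day 1 only.

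**Figure D2:**
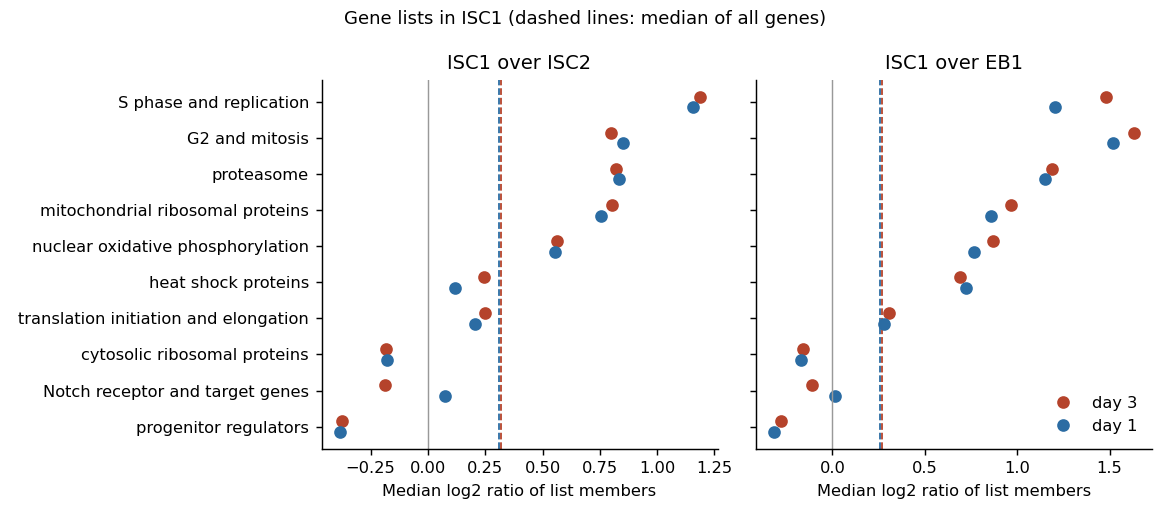
Median log2 ratio of the members of 10 gene lists, ISC1 over ISC2 on the left and ISC1 over EB1 on the right, in red for day 3 and in blue for day 1, with the median of all assessed genes as dashed lines. The replication list lies farthest to the right over ISC2, at 1.18 and 1.16 against 0.32 and 0.31 for all genes, and the progenitor regulators lie to the left of 0 in both panels.

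Per cell, the cell cycle genes were detected in part of the ISC1 cells, and the share depends on depth. At the cells' own depth PCNA was detected in 80.6% of ISC1 cells at day 3 and 68.0% at day 1. Whether the spread over cells exceeded that of sampling was not tested. PCNA was detected at 4000 UMIs in 42.6% of ISC1 cells at day 3 (34.0 to 51.6) and 40.1% at day 1 (34.5 to 46.0), against 6.84% and 7.54% of ISC2 cells and 2.86% and 2.80% of EB1 cells. At least 3 of 16 mitotic genes were found in 26.4% of ISC1 cells at day 3 (19.0 to 34.8) and 33.7% at day 1 (28.3 to 39.4), against 3.16% and 4.19% of ISC2 cells. In EB1 the count was 0 of 70 cells at day 3, which allows up to 4.29%, and 0 of 322 at day 1, which allows up to 0.932%. At least 3 of 12 replication genes were found in 27.1% of ISC1 cells at day 3 and 22.4% at day 1, against 2.11% and 0.838% of ISC2 cells. Both sets passed at once in 8.53% of ISC1 cells at day 3 and 11.2% at day 1. These shares of ISC1 are of its 129 day 3 and 294 day 1 cells up to the median depth. ISC1 was not the only class with mitotic genes: at day 1 the AstC+EE cells, an enteroendocrine class, had 11 of 30 cells with at least 3 of them, or 36.7%, and at day 3 had 2 of 26.

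Beyond the cell cycle, the genes of protein breakdown and of mitochondrial protein synthesis were higher in ISC1. The proteasome is the protease that degrades ubiquitin-tagged proteins, and 30 of 32 of its genes were assessed. All 30 were higher than in ISC2 and than in EB1, with medians of 0.82 at day 3 and 0.83 at day 1 over ISC2, and of 1.19 and 1.15 over EB1. Of 71 assessed genes for mitochondrial ribosomal proteins 55 were higher than in ISC2 and 65 higher than in EB1. Of 62 nuclear genes of oxidative phosphorylation 37 and 54 were higher. No assessed member of these lists was lower in either comparison. These levels were not highest in ISC1. The summed proteasome genes reached 57.9 and 62.9 per 10000 in ISC1 at day 3 and day 1, against 63.7 and 71.5 in EB2, and the summed mitochondrial ribosomal proteins 45.2 and 53.3, against 71.4 and 87.7 in EB2.

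With the median of all genes set to 0, the replication list had 12 of its 18 members higher over ISC2, the mitotic list 12 of 25, the proteasome 13 of 30, the mitochondrial ribosomal proteins 28 of 71 and oxidative phosphorylation 3 of 62. Over EB1 the same lists had 15, 22, 29, 45 and 34. Among all genes that setting had 475 of 4422 higher and 529 lower over ISC2, and 817 of 4554 higher and 724 lower over EB1. Oxidative phosphorylation thus fell below the share of all genes over ISC2, though its median stayed 0.25 above that of all genes at both ages. In cells of 15000 to 28085.5 UMIs, where depths were close (medians of 21568 and 21305 UMIs in ISC1, 20807 and 19731 in ISC2), rebuilt UMI counts gave 15, 18, 30, 50 and 42 members higher over ISC2. Genes for cytosolic ribosomal proteins had medians of −0.18 at both ages over ISC2, with 3 of 84 higher and none lower. With the median of all genes set to 0, 1 of them was higher and 37 were lower.

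Regulators of the progenitor state were lower in ISC1 than in ISC2 where they differed. Of 20 assessed genes 6 were lower and none higher, against 3.23% lower and 29.2% higher over all genes. The medians were −0.37 at day 3 and −0.39 at day 1. With the median of all genes set to 0, 14 of the 20 were lower, against 529 of 4422 over all genes. The 6 were esg, the zinc finger gene peb, the headcase gene hdc, the Id-like inhibitor gene emc, Tet and the RNA-decay factor gene Tis11. Against EB1 esg, klu and Stat92E were lower. Stat92E is the transcription factor of the JAK-STAT pathway, and klu, which is known to mark enteroblasts, averaged 1.63 in ISC1 at day 3 and 1.48 at day 1, against 2.99 and 2.78 in EB1. The Snail family factor gene sna was the single one higher than in EB1, with 0.528 in ISC1 at day 3 and 0.320 at day 1, against 0.0330 and 0.0148 in EB1.

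In the Notch pathway 3 target genes of the receptor were lower in ISC1 than in ISC2 and in EB1, and the ligand lay between both classes. The genes of the E(spl) complex respond to Notch and encode nuclear repressors (the HLH genes) or small proteins of the Bearded family (the BFM genes). E(spl)malpha-BFM averaged 3.37 in ISC1 and 8.42 in ISC2 at day 3, and 3.34 in ISC1 and 7.91 in ISC2 at day 1 (log2 −1.30 at day 3 and −1.22 at day 1). E(spl)mbeta-HLH averaged 7.87 in ISC1 and 12.4 in ISC2 at day 3, and 6.541 in ISC1 and 10.2 in ISC2 at day 1. E(spl)m3-HLH was also lower, and E(spl)mgamma-HLH, at 0.206 in ISC1 at day 3 and 0.242 at day 1, was higher than the 0.0218 and 0.0671 of ISC2. Per cell, E(spl)mbeta-HLH was found at 4000 UMIs in 80.6% of ISC1 cells at day 3 and 81.0% at day 1, against 94.7% and 96.4% of ISC2 and 97.1% and 96.6% of EB1. Of 11 assessed genes of the receptor and its targets 1 was higher than in ISC2 and 3 were lower, and against EB1 4 were higher and 4 lower. Over all genes 29.2% were higher and 3.23% lower than in ISC2, and 31.1% were higher and 8.61% lower than in EB1. E(spl)m7-HLH, at 0.426 in ISC1 at day 3 and 0.277 at day 1, was among the 4 higher than in EB1, where it had 0.0523 and 0.0376. The receptor N had a log2 ratio of −0.495 over ISC2 at day 3 and −0.57 at day 1, so that it missed the fold in 1 library.

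Among the genes that regulate the ligand, neur, which encodes the ubiquitin ligase that makes Dl active, was higher in ISC1 than in EB1, with 0.338 in ISC1 at day 3 and 0.246 at day 1, against 0.0954 and 0.0770 in EB1. The gene fng encodes the sugar transferase that changes how Notch responds to its ligands. It was lower in ISC1 than in EB1, with 0.303 in ISC1 at day 3 and 0.408 at day 1, against 1.14 and 1.47 in EB1, and did not reach the fold against ISC2. The protease gene kuz, which cuts Notch at the surface, and the endocytosis gene lqf reached the fold in neither comparison.

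Few genes of the growth factor pathways were higher in ISC1 than in ISC2. They were 0 of 18 assessed genes of the EGFR pathway, 1 of 10 of the JAK-STAT pathway and 2 of 18 of the insulin and TOR pathway, against 29.2% of all genes. In the EGFR pathway Egfr itself, the receptor, and Mkp3, a phosphatase that dampens the pathway, were lower than in ISC2, and 1 gene, edl, was higher than in EB1. In the JAK-STAT pathway Socs36E, its feedback inhibitor, was lower than in ISC2, with 3.35 in ISC1 at day 3 and 3.99 at day 1, against 4.85 and 6.43 in ISC2, and Su(var)2-10 was higher. The cytokine genes upd2 and upd3 were higher than in EB1, with upd3 at 0.491 in ISC1 at day 3 and 0.446 at day 1, against 0.232 and 0.251 in EB1. In the insulin and TOR pathway ImpL2, a secreted insulin antagonist, and mnd, an amino acid transporter, were higher than in ISC2, and REPTOR, a transcription factor held back by TOR, was lower. The translation brake Thor, which TOR signalling inactivates, averaged 7.29 in ISC1 at day 3 and 8.73 at day 1, against 19.8 and 23.9 in EB1.

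Among the heat shock genes the mitochondrial chaperones had the largest ratios over ISC2. Of 14 assessed genes 5 were higher in ISC1 than in ISC2, a share near the 29.2% of all genes. These were the mitochondrial chaperones Hsp60A and Hsc70-5, the chaperone of the endoplasmic reticulum Hsc70-3, and Hsp83 and Hsc70Cb of the cytosol. Hsp60A averaged 3.71 in ISC1 and 1.75 in ISC2 at day 3, and 3.70 in ISC1 and 1.84 in ISC2 at day 1. The inducible gene Hsp26 did not reach the fold against ISC2, with 4.87 in ISC1 at day 3 and 3.996 at day 1, against 4.13 and 4.03 in ISC2. Of 21 antioxidant genes assessed against EB1, 7 were higher, a share near the 31.1% of all genes, among them the superoxide dismutases Sod1 and Sod2. The 6 lower ones, against 8.61% of all genes, included catalase (Cat) and the peroxiredoxin genes Prx2540-1 and Prx2540-2. The 3 assessed genes of the iron and metal list were lower than in EB1, namely the ferritin chains Fer1HCH and Fer2LCH, which store iron, and the metallothionein gene MtnA.

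Other genes distinguished ISC1 from EB1 by far larger ratios. Pen, which encodes an importin that carries proteins into the nucleus, lies on chromosome 2L at 10056900 to 10060095. It averaged 2.93 in ISC1 and 0.0179 in EB1 at day 3, and 2.36 in ISC1 and 0.0235 in EB1 at day 1 (log2 4.68 at day 3 and 4.31 at day 1). It was detected in 90.7% of the ISC1 cells with rebuilt counts at day 3 and 85.0% at day 1, at their own depth, against 7.14% and 5.28% of EB1 cells. CG1943, Dl, PCNA, the cuticle protein gene Cpr51A, the nucleotide-cleaning enzyme gene dUTPase, babos and the water channel gene Prip followed, with ratios between 2.67 and 3.96. Of the genes lower than in EB1 the largest ratios belonged to stl, which encodes a secreted metalloprotease (0.0626 in ISC1 and 1.23 in EB1 at day 3), and to the axonal transport kinesin gene unc-104 (0.586 in ISC1 and 4.57 in EB1 at day 3). The others were CG17145, the cytochrome P450 gene Cyp6a9, Prx2540-2, Prx2540-1, CG12896 and CG11155. Prx2540-1, Prx2540-2 and CG12896 are close copies between which reads can be split, so their single values are uncertain.

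Against ISC2 the largest negative ratio was that of nrv3, which encodes a subunit of the sodium pump, with 0.115 in ISC1 and 0.696 in ISC2 at day 3, and 0.0744 in ISC1 and 0.658 in ISC2 at day 1. DOR, Sirup, E(spl)malpha-BFM, CG5059, lin-28, CG15309 and the splicing regulator gene Rbfox1 followed with ratios between −1.09 and −1.60. The RNA-binding protein gene lin-28, known to promote stem cell growth in the fly gut, averaged 0.755 in ISC1 and 1.84 in ISC2 at day 3, and 0.539 in ISC1 and 1.31 in ISC2 at day 1.

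Against all other cells together, Pen, PCNA, CG1943, Ts, aurB, dUTPase, RPA2 and the chromatin protein gene HmgD had the largest ratios. HmgD averaged 10.5 in ISC1 and 2.80 in the others at day 3, and 10.2 in ISC1 and 3.08 in the others at day 1, and the AstC+EE class reached 8.27 and 12.4. At the other end stood genes of differentiated cells, namely the hormone gene NPF, the digestive peptidase genes betaTry, alphaTry and Jon65Aiii, the cold-response gene Fst, and CG8661, CG13323 and CG13315. Of 28 assessed serine peptidases 27 were lower, of 14 enteroendocrine peptide and secretion genes 13, and of 14 enterocyte genes 10, against 8.69% of all genes. Against ISC2 10, 3 and 6 members of these lists were assessed. Members assessed here only through the classes where they are high had to be lower. At the cells' own depth, betaTry was detected in 58.1% of ISC1 cells and 53.6% of the others at day 3, and NPF in 20.2% and 24.2%.

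Markers of cells outside the epithelium were low in ISC1. In the cells with rebuilt counts the summed visceral muscle markers came to 0.907 UMIs per ISC1 cell at day 3 and 0.629 at day 1, of which the gene how gave 105 of 117 and 159 of 185. Mhc, the muscle myosin, was found at 4000 UMIs in no ISC1 cell of either library, which allows up to 2.33% at day 3. The hemocyte markers came to 0.620 UMIs per cell at day 3 and 0.755 at day 1, mostly the scavenger receptor gene crq, and Hml, which defines hemocytes, was found in 0 of 129 and 1 of 294 cells. Tracheal, fat body and germline markers each came to at most 0.209 UMIs per cell. Neuron and glia markers came to 2.43 UMIs at day 3 and 2.10 at day 1, of which moody gave 145 of 313 and 309 of 618. The part of such cells in the results was not tested.

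ISC1 was itself not uniform. In the authors' clustering at a resolution of 0.6, cluster 3 held 238 of the 361 ISC1 cells at day 3, or 65.9% (60.8 to 70.8), and 290 of 534 at day 1, or 54.3% (49.97 to 58.6). Cluster 5 held 111 at day 3, or 30.7% (26.0 to 35.8), and 232 at day 1, or 43.4% (39.2 to 47.8). The remaining cells lay in other clusters. Cluster 3 cells were shallower, with medians of 30614 UMIs at day 3 and 21733.5 at day 1, against 37464 and 32866.5 in cluster 5. Their label transfer scores for ISC1 were higher, with medians of 1.00 at both ages, against 0.922 and 0.894 in cluster 5.

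Cluster 3 carried the ligand and the cell cycle genes. Dl averaged 1.64 in cluster 3 and 0.114 in cluster 5 at day 3, and 2.28 in cluster 3 and 0.309 in cluster 5 at day 1. Pen averaged 4.17 in cluster 3 and 0.494 in cluster 5 at day 3, and 3.91 in cluster 3 and 0.474 in cluster 5 at day 1. PCNA averaged 1.82 in cluster 3 and 0.443 in cluster 5 at day 3, and 2.22 in cluster 3 and 0.5004 in cluster 5 at day 1. The progenitor genes differed less, since esg was at 3.57 in cluster 3 and 4.001 in cluster 5 at day 3, and 3.102 in cluster 3 and 3.62 in cluster 5 at day 1. N was at 4.64 in cluster 3 and 2.56 in cluster 5 at day 3, and at 4.22 in cluster 3 and 2.61 in cluster 5 at day 1. By rebuilt counts in the shallower cells the log2 ratio of Dl was 2.16 at day 3 and 1.91 at day 1, against 3.02 and 2.54 over all cells.

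Of 25 assessed mitotic genes 22 were higher in cluster 3 than in cluster 5, with medians of 1.46 and 1.40, and of 18 replication genes 15, with medians of 1.06 at both ages. None was lower. By rebuilt counts in the shallower cells the medians were smaller, at 0.93 and 1.08 for the mitotic and 0.75 and 0.85 for the replication genes. A share over all genes is not given for cluster 3 against cluster 5. Of 71 genes for mitochondrial ribosomal proteins 1 was higher in cluster 3, and of 62 nuclear genes of oxidative phosphorylation none, and no member of these lists was lower. The 12 genes with the largest ratios were Pen, Dl, CG1943, Cpr51A, aurB, polo, PCNA, Ts, RPA2, the cell adhesion gene ed, the phosphodiesterase gene Pde9 and scra, which encodes the anillin of the dividing cell's contractile ring. In the other direction stood CG43349, CG6006, CG34198, CG30154, Kaz-m1, CG17778, the ceramidase gene CDase, the Klf factor gene luna, the glutathione transferase gene GstD2, Ugt305A1, fng and CG6178. CG34198 averaged 4.13 in cluster 3 and 10.2 in cluster 5 at day 3, and 4.36 in cluster 3 and 12.1 in cluster 5 at day 1. Some of these ratios were smaller by rebuilt counts, such as that of ed at day 3 (1.63 against 0.61 rebuilt) and that of CG30154 (−1.27 against −0.14). Clusters were drawn from these genes, so the differences describe the clusters and test nothing.

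**Figure D3:**
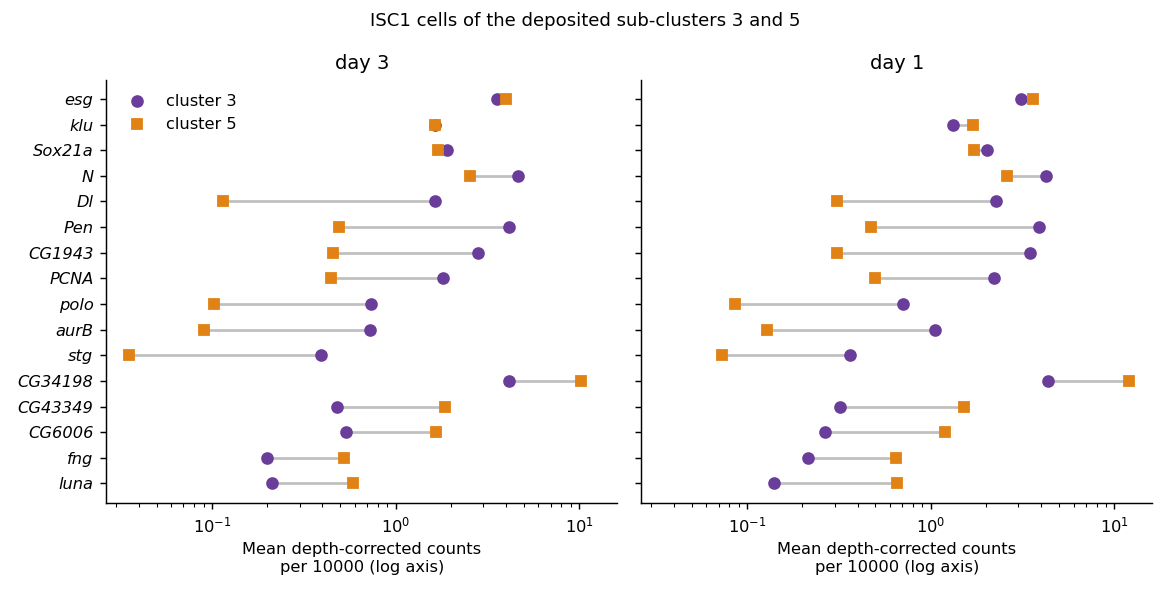
Mean depth-corrected counts per 10000 (log axis) of 16 genes in ISC1 cells of cluster 3 (circles) and cluster 5 (squares), at day 3 on the left and day 1 on the right. Dl stood at 1.64 in cluster 3 and 0.114 in cluster 5 at day 3, while esg stood at 3.57 in cluster 3 and 4.001 in cluster 5.

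At 4000 UMIs Dl was found in 34 of 96 cluster 3 cells at day 3, or 35.4% (25.9 to 45.8), and in 97 of 203 at day 1, or 47.8% (40.7 to 54.9). In cluster 5 it was found in 1 of 28 cells at day 3, or 3.57% (0.0904 to 18.3), and in 12 of 86 at day 1, or 13.95% (7.42 to 23.1). At least 3 of the 16 mitotic genes were found in 33.3% of cluster 3 cells at day 3 and 45.3% at day 1, against 3.57% and 8.14% of cluster 5 cells. Cluster 3 gave 96 of the 129 thinned ISC1 cells at day 3 and 203 of the 294 at day 1. Among all ISC1 cells it gave 238 of 361 and 290 of 534. The shares of cells given above for ISC1 as a whole thus lean towards cluster 3. Split by the mitotic genes instead, Dl was found in 38.2% of cells with at least 3 of them at day 3 (22.2 to 56.4) and 52.5% at day 1 (42.2 to 62.7), against 24.2% (16.01 to 34.1) and 29.2% (23.0 to 36.1) of cells with fewer. The intervals were apart at day 1 and overlapped at day 3. The enteroendocrine factor gene pros was found in 1 of 34 and 6 of 99 cells with at least 3 mitotic genes, against 1 of 95 and 1 of 195 cells with fewer.

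Set against ISC2, the proteasome and mitochondrial genes had medians above that of all genes in both clusters, and the mitotic genes had one in cluster 3. The proteasome median was 0.94 at day 3 and 0.98 at day 1 in cluster 3, and 0.60 at both ages in cluster 5. Mitochondrial ribosomal proteins had medians of 0.86 and 0.75 in cluster 3 and 0.72 and 0.71 in cluster 5. Mitotic genes had medians of 1.15 and 1.39 in cluster 3, against −0.19 and 0.03 in cluster 5, where all genes had 0.20 and 0.23. The replication genes had medians of 0.44 and 0.60 in cluster 5. The medians of all genes in cluster 3 were 0.35 and 0.33.

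Between the ages, ISC1 cells differed in few genes. Of 4724 assessed genes 73, or 1.55%, were higher at day 3 by a log2 difference of at least 0.5, and 32, or 0.677%, were lower. The median difference over all genes was 0.03 and the median of its size was 0.13. The genes with the largest differences included digestive peptidases, which were lower at day 3, and mitochondrial, immune and peroxiredoxin genes, which were higher. Age and library cannot be told apart in any of these values.

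The 16 assessed serine peptidases, of 38 in the table, are enzymes that enterocytes secrete to digest food. All 16 were lower in ISC1 at day 3, with a median of −1.17. Jon25Biii, on chromosome 2L at 4949941 to 4950767, averaged 0.115 per 10000 at day 3 and 1.28 at day 1 (log2 −2.68). By rebuilt counts it had 38 UMIs in 129 cells at day 3 (95% Poisson interval 26.9 to 52.2) and 905 in 294 cells at day 1 (847 to 966). It was detected in 19.4% of those cells at day 3 and 83.0% at day 1. Jon99Fii and Jon99Fi, near-identical copies whose reads can be split, followed at −1.66 and −1.65, then Jon99Cii at −1.60 and CG10472 at −1.31. The trypsin gene betaTry averaged 0.440 at day 3 and 0.986 at day 1, and yip7, Jon65Aiv and CG5246 were lower as well, at −0.97, −0.86 and −0.58.

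The peptidase transcripts were few in ISC1. Their sum was lower at day 3 in ISC1 and in every other class except the enterocytes. They summed to 2.65 per 10000 in ISC1 at day 3 and 8.78 at day 1, against 1751 and 1259 in enterocytes, which make them. By rebuilt counts in the shallower cells the sums were 3.76 at day 3 and 11.6 at day 1 in ISC1. In enterocytes they were 1196 in 27 cells at day 3 and 1104 in 29 cells at day 1, a smaller difference than over all cells. In the enteroendocrine classes they summed to 8.85 at day 3 and 18.4 at day 1 in AstC+EE, and to 7.46 and 20.9 in Tk+EE. The medians were −0.97 in ISC2, −1.08 in EB1 and −2.13 in EC-like cells, where 16, 13 and 16 of the 16 genes were lower. In enterocytes 9 of the 16 were higher and 2 lower, with a median of 0.53. At 4000 UMIs betaTry was found in 21.7% of ISC1 cells at day 3 and 32.0% at day 1, close to the 20.5% and 30.2% of ISC2 and the 24.3% and 33.9% of EB1. How much of this signal came from RNA outside the cell was not tested.

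**Figure D4:**
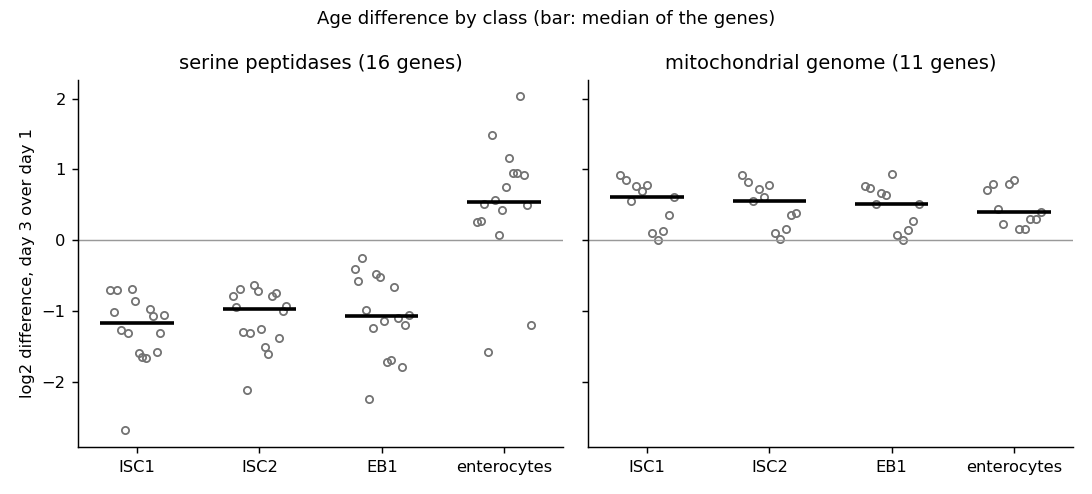
Log2 difference of day 3 over day 1 (vertical axis) of the 16 assessed serine peptidases on the left and of 11 genes of the mitochondrial genome on the right, 1 circle per gene, with the median as a bar, in ISC1, ISC2, EB1 and enterocytes. The peptidase median was −1.17 in ISC1 and 0.53 in enterocytes, while the mitochondrial median was above 0 in all 4, at 0.62 in ISC1 and 0.40 in enterocytes.

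Of the 11 genes of the mitochondrial genome 7 were higher at day 3, with a median of 0.62. They were mt:ND2, at 4.26 per 10000 at day 3 and 2.19 at day 1, mt:ND3, at 9.54 and 5.24, and mt:ND4, mt:ND4L, mt:ND5, mt:ND6 and mt:ATPase8, all subunits of the respiratory chain or the ATP synthase. The cytochrome oxidase genes differed less, with mt:CoI at 53.8 and 50.2 and mt:CoII at 55.2 and 55.3. The mitochondrial genome was also higher at day 3 in other classes, with medians of 0.56 in ISC2, 0.52 in EB1 and 0.40 in enterocytes. Nuclear genes of oxidative phosphorylation had a median of −0.11 and mitochondrial ribosomal proteins of −0.22, with none past the fold in either direction.

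Of 7 assessed immune genes AttD, pirk and PGRP-LB were higher at day 3 and PGRP-SC2 was lower, at −0.94. PGRP-LB cleaves bacterial peptidoglycan and pirk restrains the Imd pathway, and whether the activity of that pathway differed was not tested. PGRP-SC2 was also lower in ISC2 (−0.82) and EB1 (−0.83), where PGRP-LB (0.88 and 1.10) and pirk (0.80 and 1.16) were higher. AttD had 0.31 in ISC2 and 1.91 in EB1. PGRP-LB averaged 2.17 at day 3 and 1.27 at day 1 (log2 0.73), and pirk averaged 0.721 and 0.379 (0.78). By rebuilt counts in the shallower cells the differences were 0.34 for PGRP-LB and 0.41 for pirk, under the fold. AttD, an antibacterial peptide gene, was carried by few cells, since it was detected in 10.9% at day 3 and 6.12% at day 1, and a single cell held 25.5% of its sum at day 3 and another 43.1% at day 1. Its difference was 0.83, and 2.12 by rebuilt counts.

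CG11825 had the largest positive difference, with 1.15 at day 3 and 0.498 at day 1 (log2 1.07), followed by CG8620 with 1.71 and 0.813. Prx2540-1 and CG12896, close copies of a peroxiredoxin gene, were higher by 0.93 and 0.80, and the repressor gene h by 0.73. These genes were higher in ISC2 and EB1 too. The differences were 1.11 in ISC2 and 1.85 in EB1 for CG11825, and 0.67 and 0.74 for CG8620. They were 1.17 and 1.67 for Prx2540-1, 0.75 and 1.44 for CG12896, and 0.40 and 0.93 for h. CG32368 was higher by 0.77 in ISC1, with −0.12 in ISC2 and 0.81 in EB1, and had 0.45 in ISC1 by rebuilt counts, under the fold. The cell death gene hid averaged 0.337 at day 3 and 0.132 at day 1 (0.91). Among the genes lower at day 3 outside the peptidases, eEF5, a translation factor, averaged 7.76 at day 3 and 12.8 at day 1 (−0.72), with −0.69 in ISC2 and −0.75 in EB1. The mitochondrial ribosomal gene mRpL21 had −0.497, just under the fold. CG30090 had −0.59, and −0.08 by rebuilt counts.

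**Figure D5:**
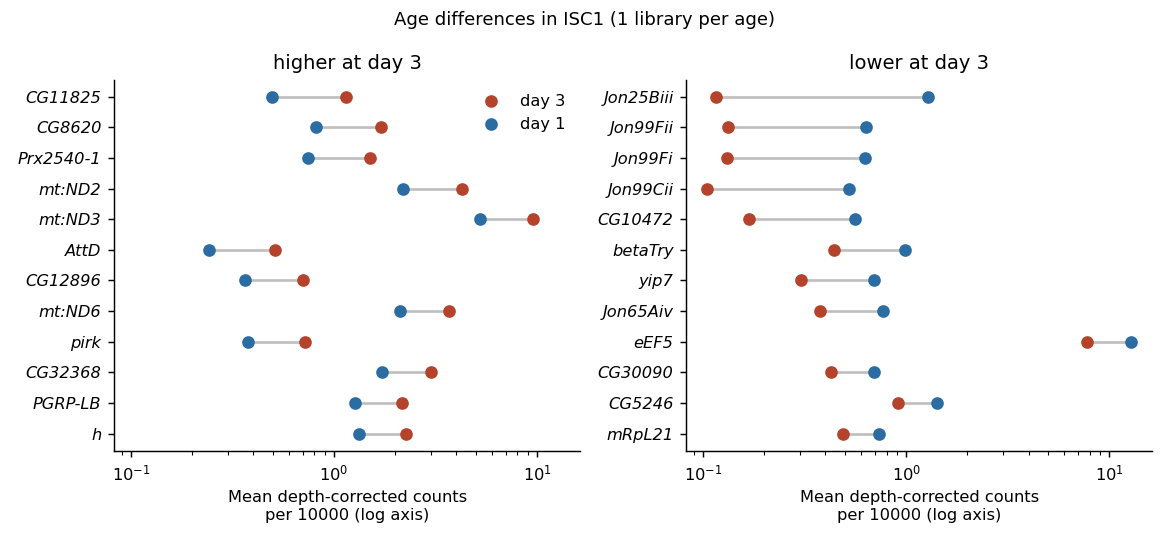
Mean depth-corrected counts per 10000 (log axis) in ISC1 cells of the 12 genes with the largest positive and the 12 with the largest negative difference between day 3 (red) and day 1 (blue). Jon25Biii stood at 0.115 at day 3 and 1.28 at day 1, and CG11825 at 1.15 and 0.498, with 1 library per age.

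Few genes of the stem cell and signalling lists reached the fold between the ages. The log2 differences in ISC1 were 0.15 for esg, −0.26 for Dl and 0.19 for N, and in ISC2 that of Dl was −0.68. No member of the lists for Notch ligand and receptor, EGFR, JAK-STAT, insulin and TOR, or G2 and mitosis reached the fold in either direction, against the 1.55% higher and 0.677% lower over all genes, so that none in lists of this size is near the share over all genes. In the Hippo, Wnt, BMP and activin, and Pvr lists 1 assessed gene each was higher at day 3. They were Tgi of the Hippo pathway (0.59), dsh of the Wnt pathway (0.53), brk of the BMP and activin pathway (0.54) and Pvf2 of the Pvr pathway (0.56), and brk had 0.38 by rebuilt counts. The largest in the lists without a call were InR, the insulin receptor, at 2.16 at day 3 and 1.52 at day 1 (log2 0.49), and E(spl)m7-HLH (0.48). The progenitor factor genes Myc and sna had 0.45 and 0.58, and the licensing gene dup had 0.51. Hsp23 was the 1 heat shock gene of 15 past the fold, at 4.28 and 2.93 (0.53), while the list's median was 0.28 in ISC1 and 0.15 in ISC2. In ISC1 that median was 0.12 by rebuilt counts and 0.13 with a pseudocount of 1.

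Because cluster 3 took a larger share of ISC1 at day 3, the age differences were also taken within each cluster. Dl had −0.45 in cluster 3 and −0.93 in cluster 5, both farther below 0 than the −0.26 of ISC1 as a whole. The peptidase median was −1.23 in cluster 3 and −1.06 in cluster 5, and the mitochondrial genome median 0.65 and 0.55. Jon25Biii had −2.85 and −2.38, mt:ND2 0.99 and 0.80, hid 0.99 and 0.79, and CG11825 0.89 and 1.40. CG30090, at −0.59 in ISC1, went the other way in cluster 3, with 0.32, and had −0.67 in cluster 5. The heat shock median was 0.21 in cluster 3 and 0.00 in cluster 5, and AttD had 1.28 and 0.23. A single cell held 43.1% of the AttD sum of ISC1 at day 1, so its values by cluster rest on few cells. So the peptidase and mitochondrial differences were present in both clusters, and the heat shock median was higher in cluster 3.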

How the data were processed

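Single-cell RNA profiles of female midgut epithelium were made with 1 library for each age. Per the submitters' processing notes, reads were handled with Cell Ranger 6.0.1 on the build BDGP6. The deposited matrix of 9607 genes in 4184 cells holds the natural log (ln) of 1 plus a depth-corrected count. The exponential of each value minus 1 lay within 2.91e-11 of a whole number and summed to the corrected total that the authors' table of cells gives for all 4184 cells. That deposited table also gives raw UMI counts per cell, the percent of counts in mitochondrial and ribosomal genes, the fraction of artificial doublet neighbours, label transfer fractions, the score-like totals of corrected counts, clusters and classes. Per the file headers its column names are those of Seurat, SCTransform and DoubletFinder. All deposited cells were marked singlets, and no cell was removed here. The settings behind these steps are not given in the sources used here.

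Levels are means over cells of the corrected counts per 10000. Log2 ratios used a pseudocount of 0.1, which understates the change of low genes. Correction moves counts of deep cells most, so UMI counts were also rebuilt by inverting the correction in the 2092 cells with at most 28085.5 UMIs, the median over all cells, of which 423 were ISC1. In those ISC1 cells the rebuilt totals were 0.9998 to 1.001 times the deposited ones. Over all 2092 cells they were 0.960 to 1.007 times the deposited ones. Of the values 0.0892% did not follow the inverted rule. Shares of cells were taken after thinning to 4000 UMIs, with exact Clopper-Pearson 95% intervals. A count of 0 was taken to allow 3 counts. Intervals cover counting error only. With 1 library per age no test across samples was possible.

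Genes were named by rule. Their mean had to reach 0.5 per 10000 with detection in 10% of cells, and the 8 largest ratios per class comparison and direction, by the smaller ratio of the 2 libraries, or the 12 largest age differences per direction, were taken. Members of 39 gene lists could also be named. The members and lists were chosen with earlier results of these data known. Ages were compared within ISC1 and classes within each library, under the alternatives described in the closing section. The procedure was also run on counts simulated with the same depth rule that it inverts, so that run cannot test whether the rule holds for the deposited values. Python 3.11.15, numpy 2.4.6, scipy 1.17.1, pandas 2.3.3, numba 0.67.0 and matplotlib 3.10.9 were used. Coordinates come from the annotation BDGP6.54.115, in which no entry was matched for Dl.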

Additional observations from a re-analysis of the deposited data

Results flagged for a closer look

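Of the genes named for their age difference in ISC1, 7 differed in the opposite direction in enterocytes, by at least the same fold. The serine peptidase genes were lower at day 3 in ISC1 and higher at day 3 in enterocytes. In enterocytes the log2 differences of day 3 over day 1 were 1.49 for Jon25Biii, 0.96 for Jon99Fii, 1.16 for Jon99Fi, 0.75 for Jon99Cii, 0.95 for yip7 and 1.30 for CG5246, against −2.68, −1.66, −1.65, −1.60, −0.97 and −0.58 in ISC1. PGRP-LB, at 0.73 in ISC1, had −0.55 in enterocytes. By rebuilt counts in the shallower cells, the summed peptidase list differed less in enterocytes. It stood at 1196 per 10000 in 27 cells at day 3 and 1104 in 29 cells at day 1, against 1751 and 1259 over all enterocytes. The difference between the classes was not tested, since each age had 1 library, and the enterocytes numbered 60 at day 3 and 72 at day 1.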

How the results depend on the processing

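No gene named for its age difference turned its direction under the settings below, but counts of genes past the fold moved. With a pseudocount of 1 in place of 0.1, 190 genes were higher and 35 lower in ISC1 than in ISC2, 343 and 93 against EB1, 138 and 114 against all other cells, and 10 and 4 at day 3 against day 1. With the median of all genes set to 0, an alternative chosen after seeing the data, the class counts were 475 and 529, 817 and 724, and 452 and 628, so that lower genes outnumbered higher ones against ISC2 and against all other cells. Rebuilt UMI counts gave 84 genes lower at day 3, and cells of middle depth gave 118 higher and 74 lower. Of the 73 higher and 32 lower genes 49 and 29 were also called by rebuilt counts, and 59 and 30 in cells of middle depth. The lower gene AstC turned, at −0.79 against 0.57 by rebuilt counts and 0.24 without the highest cell, which held 90.6% of its day 1 sum. Sums over cells and no filter on low values kept all 8 class and age counts within 1.5 times. So did leaving out the highest cell for the 2 age counts, and rebuilt counts in cells of 15000 UMIs up to the median depth, also chosen after seeing the data, for the 6 class counts. The ISC1 share was 29.7% at day 3 and 24.3% at day 1 of progenitors. At 8000 UMIs esg was detected in 88.1% and 82.6% of ISC1 cells at day 3 and day 1, Dl in 37.3% and 50.7% and N in 96.8% and 93.8%. At the cells' own depth the shares were 96.9% and 94.9% for esg, 57.4% and 62.9% for Dl and 98.4% and 99.7% for N. Of the 24 named age differences 14 moved little under rebuilt counts and 10 moved, and of 32 list medians 28 and 4. The median of the cell cycle inhibitors went to the other side of 0, at 0.083 against −0.0071 by rebuilt counts. With a pseudocount of 1 the peptidase median was −0.35 and that of the mitochondrial genome 0.33. The cause was not tested.

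No paired analysis was possible because each age had 1 library. Differences between the ages have no replicate error, and shares of cells with a UMI depend on the depth they are read at, as the values for Dl show.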
